A study of Homo sapiens with 8 samples.

Results

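The genes described here are 10 genes of glucose uptake and glycolysis, taken by their symbols in the platform's probe annotation from a list of 10 names. That list was chosen with earlier results of these data known. All 10 were found among the 17491 genes measured, each with 1 probe set: SLC2A1, HK2, PFKL, TPI1, GAPDH, PGK1, ENO1, PKM, LDHA and LDHB. The arrays came from lymph node metastases in BALB/c nude mice, an athymic strain, bearing SkMel147 tumours under the skin. SkMel147 is a human melanoma cell line, and the design text speaks of melanomas where the sample labels name nodes. Per the labels, doxycycline was given to induce Omomyc, a dominant-negative form of the transcription factor MYC, in the tumour cells, which the vehicle mice carried too. Of the 8 arrays, 4 came from mice that drank doxycycline and 4 from mice that drank its vehicle. Treatment ran from when tumours reached some 750 mm3, and nodes were taken 2 days after treatment. The sample titles name biological replicas and do not say whether each came from a different mouse. Tumours without the Omomyc construct were not analysed here, so an effect of doxycycline itself and one of Omomyc cannot be told apart. The labels state neither the age of the mice nor the promoter that drives Omomyc. Whole nodes were homogenised, so human tumour RNA and mouse host RNA met the same human array, and fewer cells of a type cannot be told apart from less RNA per cell.

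Glycolysis turns glucose into pyruvate in the cytosol and yields ATP, NADH and building blocks for nucleotides, amino acids and lipids. Proliferating tumour cells often run it at a high rate even with oxygen present and turn much of the pyruvate into lactate. MYC and the hypoxia factor HIF1 are known to activate many of these genes, among them LDHA, ENO1, HK2 and SLC2A1. Several of the genes, GAPDH above all, have processed pseudogenes and are conserved between human and mouse, so what their probe sets read is uncertain as to the copy and the species.

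The values are log2 expression values made with RMA, a method that corrects background, normalises between arrays and summarises the probes of a set. Levels of different genes are not compared, because probe sets differ in brightness. Array medians lay between 5.07 and 5.12, and the number of arrays limits the precision. Vehicle replicate 1 stood apart: its correlations with the other 7 arrays across genes ran from 0.930 to 0.951, whereas those 7 correlated with each other at 0.972 to 0.983. Differences of the 10 genes are therefore also given without that array.

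The sequence before the transcription start is shown for 4 of the genes. LDHA and LDHB form the pair whose difference is compared within arrays below, ENO1 had a range over the arrays close to that of GAPDH, and PFKL differed in the opposite direction to these. RefSeq (GRCh38.p14) held windows for all 10 genes, 13 in total because some genes have more than 1 start. The 250 bases before each start were searched on both strands for CACGTG, the E-box that MYC and MAX bind, ACGTG, the core of the HIF1 element, which is contained in CACGTG, and GGGCGG, the GC box of SP1. The windows below are at chr21:44299803-44300052 on the plus strand for PFKL, chr1:8878687-8878936 on the minus strand for ENO1, chr11:18394313-18394562 on the plus strand for LDHA and chr12:21657843-21658092 on the minus strand for LDHB. They run 5′ to 3′ along the gene, with capitals where any of the motifs lies on either strand.
PFKL: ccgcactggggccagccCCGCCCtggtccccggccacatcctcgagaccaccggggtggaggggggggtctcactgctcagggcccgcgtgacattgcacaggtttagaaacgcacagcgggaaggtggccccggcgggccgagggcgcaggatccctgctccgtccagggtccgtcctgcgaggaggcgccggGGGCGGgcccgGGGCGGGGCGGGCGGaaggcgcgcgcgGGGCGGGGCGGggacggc
ENO1: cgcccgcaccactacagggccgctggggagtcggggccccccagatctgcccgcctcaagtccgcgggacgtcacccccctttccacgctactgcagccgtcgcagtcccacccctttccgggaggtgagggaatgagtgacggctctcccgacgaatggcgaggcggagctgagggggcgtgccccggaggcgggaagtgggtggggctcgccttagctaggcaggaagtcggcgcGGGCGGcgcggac
LDHA: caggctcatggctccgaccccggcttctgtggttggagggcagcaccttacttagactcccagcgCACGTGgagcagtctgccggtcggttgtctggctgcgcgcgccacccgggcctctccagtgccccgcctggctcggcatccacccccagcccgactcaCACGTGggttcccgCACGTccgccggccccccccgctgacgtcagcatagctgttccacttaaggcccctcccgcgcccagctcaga
LDHB: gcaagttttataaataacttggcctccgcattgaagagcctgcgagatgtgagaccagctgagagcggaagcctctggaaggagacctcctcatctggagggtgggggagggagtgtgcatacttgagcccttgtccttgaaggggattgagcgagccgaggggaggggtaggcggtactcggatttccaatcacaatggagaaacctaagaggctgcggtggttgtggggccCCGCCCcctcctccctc
The LDHA window shown, at the outermost of its starts, held 2 copies of CACGTG, 1 further ACGTG and 0 copies of GGGCGG. LDHA has another window, at chr11:18396101-18396350 on the plus strand, which held 0 copies of ACGTG and 4 of GGGCGG. The LDHB, ENO1 and PFKL windows held 0 copies of ACGTG, with 1, 1 and 7 copies of GGGCGG. Of the 13 windows of the 10 genes, 3 held CACGTG (1 each of GAPDH, LDHA and HK2), 6 held ACGTG and 12 held GGGCGG. Among all 35116 windows of this length, 6.34% held CACGTG, 18.5% ACGTG and 42.6% GGGCGG. A match describes the letters in the window and says nothing of binding in these nodes.

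The main comparison asks how these genes differed between nodes of doxycycline-treated and vehicle-treated mice. None of the 10 genes passed: limma called 0 of them at 0.05 after Benjamini-Hochberg adjustment over 17491 genes, and it called 0.00% of all genes. Their adjusted p ran from 0.987 to 0.994. The doxycycline mean lay below the vehicle mean for 8 of the 10, with a median difference of -0.44 on the log2 scale, whereas 44.5% of all genes had a difference below 0 and their median was 0.021. Without vehicle replicate 1, 7 of the 10 were below 0 with a median of -0.12, against 49.2% and 0.00315 over all genes. At an unadjusted p under 0.05 the test held 3 members below 0 (LDHB, PKM and ENO1), where 1.31% of all genes were, and 1 above 0 (PFKL), where 2.49% of all genes were. The same 4 members were at an unadjusted p under 0.05 without vehicle replicate 1, against 2.25% and 2.66% of all genes in those directions. LDHB and PKM were the 2 members whose groups did not overlap, both with doxycycline below vehicle, where 0.863% of all genes had groups apart in that direction. Groups apart over all 8 arrays necessarily stay apart with fewer arrays. Without vehicle replicate 1 no other member joined LDHB and PKM, while the share of all genes was 2.67%. With doxycycline above vehicle, 0 members had groups apart in either fit, against 1.76% and 3.00% of all genes.

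**Figure D1:**
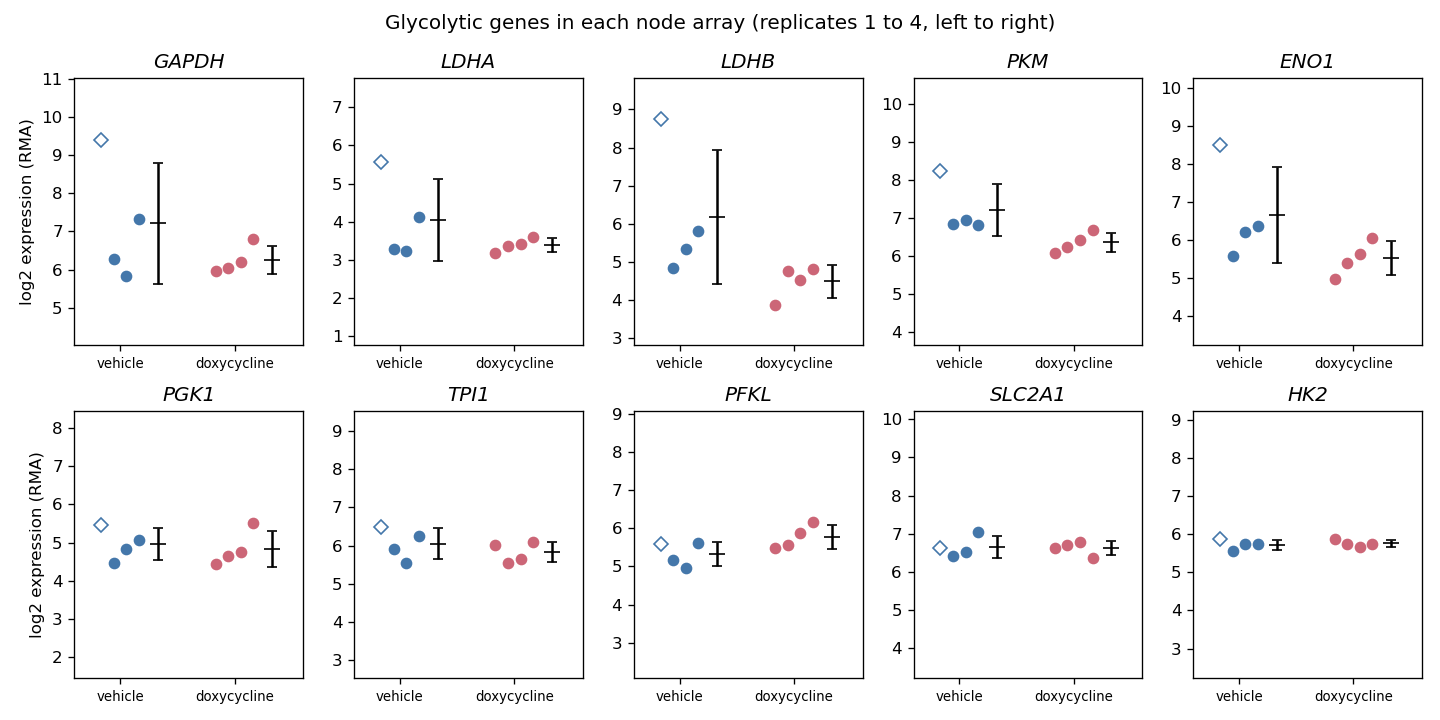
Log2 expression (RMA) of each of the 10 genes on the vertical axis in the 4 vehicle and 4 doxycycline arrays, replicates 1 to 4 from left to right, with black bars for the mean and SD (n = 4) and an open diamond for vehicle replicate 1. Every panel spans the same number of log2 units, and vehicle replicate 1 lies far above the other 7 arrays for GAPDH, LDHA, LDHB, ENO1 and PKM but not for SLC2A1, HK2 or PFKL.

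Glucose enters cells through transporters of the SLC2A family, and SLC2A1 encodes GLUT1, the transporter found in most cell types. SLC2A1 was at 6.62, 6.42, 6.52 and 7.05 in vehicle replicates 1 to 4 and at 6.64, 6.71, 6.78 and 6.37 in doxycycline replicates 1 to 4. The groups overlapped, and vehicle replicate 1 lay in the middle of the other arrays. The difference, doxycycline minus vehicle throughout, was -0.030 ± 0.16 (SE), with a 95% confidence interval from -0.37 to 0.31, and -0.042 ± 0.17 (SE) without vehicle replicate 1. HK2 encodes hexokinase 2, which traps glucose in the cell as glucose 6-phosphate. It had the smallest spread of the 10 genes, with vehicle values of 5.87, 5.56, 5.73 and 5.74 and doxycycline values of 5.88, 5.75, 5.65 and 5.74. Its difference was 0.034 ± 0.12 (SE), with an interval from -0.23 to 0.29, and 0.082 ± 0.13 (SE) without vehicle replicate 1.

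PFKL encodes the liver-type subunit of phosphofructokinase, the main control point of the pathway. Its values were 5.59, 5.16, 4.96 and 5.60 with vehicle and 5.48, 5.56, 5.87 and 6.17 with doxycycline. Doxycycline replicates 3 and 4 lay above all vehicle arrays, and doxycycline replicates 1 and 2 lay within the vehicle range. The difference was 0.45 ± 0.19 (SE), with an interval from 0.032 to 0.86 and an adjusted p of 0.987 (limma), and it was 0.53 ± 0.19 (SE) without vehicle replicate 1. PFKL and HK2 were the members with a difference above 0 over all 8 arrays.

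TPI1, GAPDH and PGK1 carry the middle of the pathway, where the triose phosphates are made interchangeable, oxidised to give NADH, and used to make ATP. TPI1, the triose phosphate isomerase gene, was at 6.49, 5.92, 5.54 and 6.25 with vehicle and 6.01, 5.55, 5.65 and 6.08 with doxycycline, a difference of -0.23 ± 0.20 (SE) with an interval from -0.67 to 0.21. Without vehicle replicate 1 that difference was -0.084 ± 0.18 (SE), and without vehicle replicate 3 it was -0.40. PGK1, the phosphoglycerate kinase gene, was at 5.47, 4.48, 4.82 and 5.07 with vehicle and 4.43, 4.65, 4.75 and 5.52 with doxycycline. Its highest value came from doxycycline replicate 4, and its difference of -0.12 ± 0.25 (SE), with an interval from -0.66 to 0.41, became 0.047 ± 0.22 (SE) without vehicle replicate 1. GAPDH, which encodes the dehydrogenase between these steps and is often used as a reference gene, varied far more. It was at 9.40, 6.28, 5.84 and 7.33 with vehicle and at 5.97, 6.04, 6.20 and 6.80 with doxycycline, so that the arrays spanned 3.56 log2 units. The lowest and the highest of the 8 values were vehicle arrays, and all 4 doxycycline arrays lay between them. The GAPDH difference was -0.96 ± 0.58 (SE), with an interval from -2.23 to 0.31, and -0.23 ± 0.28 (SE) without vehicle replicate 1.

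ENO1 and PKM encode the enolase and the pyruvate kinase that end the pathway in pyruvate. ENO1 was at 8.49, 5.59, 6.20 and 6.37 with vehicle and 4.99, 5.41, 5.64 and 6.06 with doxycycline. Vehicle replicate 2 lay below doxycycline replicates 3 and 4, so the groups overlapped. The difference was -1.14 ± 0.48 (SE), with an interval from -2.19 to -0.088, and -0.53 ± 0.23 (SE) without vehicle replicate 1. PKM yields the M1 and M2 isoforms by splicing, which its single probe set cannot report apart here. It was at 8.23, 6.83, 6.95 and 6.82 with vehicle and 6.08, 6.23, 6.43 and 6.68 with doxycycline. All 4 doxycycline arrays lay below all 4 vehicle arrays, by 0.14 log2 units at the closest point, between doxycycline replicate 4 and vehicle replicate 4. Vehicle replicates 2 to 4 had an SD of 0.073 around 6.86 (n = 3), against an SD of 0.26 around 6.36 with doxycycline (n = 4). The difference was -0.85 ± 0.28 (SE) over all arrays and -0.51 ± 0.15 (SE) without vehicle replicate 1, with limma adjusted p of 0.987 and 0.962.

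LDHA and LDHB encode the subunits of lactate dehydrogenase, which interconverts pyruvate and lactate. The LDHA subunit dominates in glycolytic tissues and the LDHB subunit in oxidative ones such as heart. LDHA was at 5.56, 3.29, 3.22 and 4.12 with vehicle and 3.18, 3.38, 3.41 and 3.60 with doxycycline. Vehicle replicates 2 and 3 lay among the doxycycline arrays, and the difference of -0.66 ± 0.40 (SE), with an interval from -1.53 to 0.21, was -0.15 ± 0.20 (SE) without vehicle replicate 1. LDHB had the widest range of the 10 genes, 4.89 log2 units, with 8.76, 4.84, 5.33 and 5.81 with vehicle and 3.87, 4.77, 4.52 and 4.81 with doxycycline. The groups did not overlap, though vehicle replicate 2 and doxycycline replicate 4 differed by only 0.037. The LDHB difference was -1.70 ± 0.65 (SE), with an interval from -3.10 to -0.29, and -0.84 ± 0.24 (SE) with an interval from -1.35 to -0.33 without vehicle replicate 1. Its limma adjusted p was 0.987 and 0.962 in these fits.

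**Figure D2:**
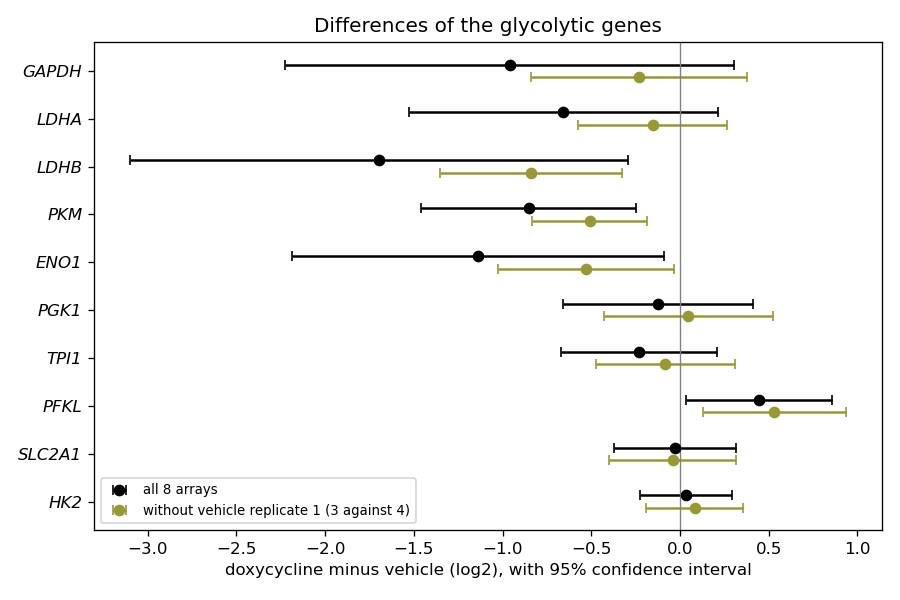
Doxycycline minus vehicle on the log2 scale for the 10 genes, with 95% confidence intervals from limma, over all 8 arrays (black) and without vehicle replicate 1 (olive). The differences of LDHB, ENO1, GAPDH, LDHA and PKM move towards 0 without that array, to between -0.84 and -0.15, while PFKL stays above 0 at 0.53.

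The lactate dehydrogenase genes were also set against each other within each array, which takes out a shift of the same size in both. LDHA minus LDHB was -3.20, -1.55, -2.10 and -1.69 in vehicle replicates 1 to 4 and -0.69, -1.39, -1.11 and -1.21 in doxycycline replicates 1 to 4. The sizes depend on the brightness of the probe sets, so only the change between arrays can be read. LDHA was among the dimmest 25% of genes and lay between 3.18 and 3.60 in 6 of the 8 arrays, so the comparison largely restates that of LDHB, whose groups were already apart. Vehicle replicate 1 stood apart here too, because it exceeded the other arrays by more for LDHB than for LDHA. All doxycycline arrays lay above all vehicle arrays, the closest being doxycycline replicate 2 and vehicle replicate 2. The vehicle mean was -2.14 (SD 0.75, n = 4) and the doxycycline mean -1.10 (SD 0.30, n = 4), a difference of 1.04. A two-sided exact permutation test over 70 assignments of the arrays gave p = 0.0286, the smallest it can give. This pair was taken up with the differences of LDHA and LDHB already known, so the p is not independent evidence. Without vehicle replicate 1 the difference was 0.68 (exact p = 0.0286, the smallest that 35 assignments allow). Leaving out a doxycycline array gave exact p of 0.0571 (replicates 2, 3 and 4) and 0.0857 (replicate 1), with differences from 0.90 to 1.14, so the call at 0.05 was lost. Groups that are apart over all 8 arrays stay apart when any array is left out, so that they did so adds nothing. With fewer doxycycline than vehicle arrays, some assignments in the opposite direction gave a difference as large, which raised the p.

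**Figure D3:**
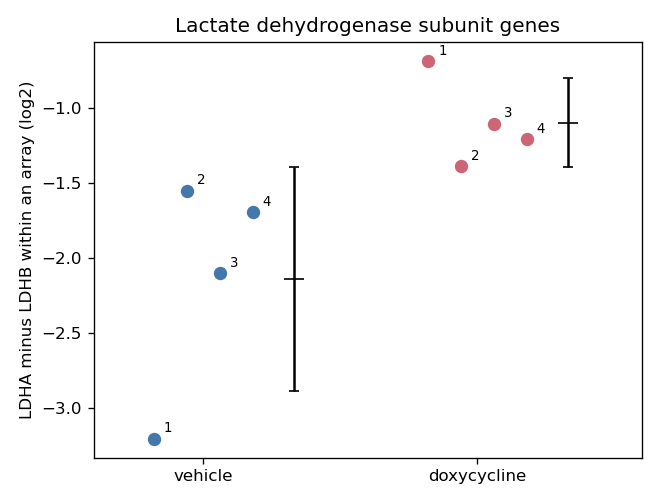
LDHA minus LDHB on the log2 scale within each array, for 4 vehicle and 4 doxycycline arrays numbered by replicate, with black bars for the mean and SD (n = 4). The doxycycline arrays lie between -1.39 and -0.69 and the vehicle arrays between -3.20 and -1.55, so the groups do not overlap.

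Vehicle replicate 1 divided the 10 genes. Its excess over the mean of the other 7 arrays was 3.91 for LDHB, 3.05 for GAPDH, 2.74 for ENO1, 2.10 for LDHA and 1.66 for PKM. The excess was 0.66 for PGK1, 0.63 for TPI1, 0.15 for HK2, 0.042 for PFKL and -0.024 for SLC2A1. Thus 5 of the 10 genes exceeded the other arrays by more than 1 log2 unit, as did 3.43% of all genes and 0 of the 15 other glycolytic enzymes measured. The 10 genes were chosen with earlier results of these data known, so their share is not independent evidence. Only 5 of the 17491 genes had a larger excess than LDHB, and 27 had a larger one than GAPDH.

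An order shared by many of the 10 genes, looked at after the values were seen, appeared within the doxycycline group. Doxycycline replicate 4 had the highest doxycycline value for 8 genes, all but SLC2A1 and HK2, whereas it was the highest of the group for 25.7% of all genes. Doxycycline replicate 1 had the lowest value for 7 genes, all but TPI1, SLC2A1 and HK2, against 24.2% of all genes. SLC2A1 ran the other way, with its lowest value of all 8 arrays in doxycycline replicate 4. Among the 7 arrays without vehicle replicate 1, vehicle replicate 4 was the highest for 6 genes, which were SLC2A1, TPI1, GAPDH, ENO1, LDHA and LDHB, against 11.5% of all genes. GAPDH, LDHA, LDHB, PKM, ENO1, PGK1 and PFKL had both their doxycycline extremes in the same arrays.

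Markers of tumour and host cells were read beside these values, and single markers are named after their values were seen. The list of dedifferentiated melanoma markers (5 of 6 measured) had a mean level of 7.53 in vehicle replicate 1, between 5.64 and 6.05 in the other vehicle arrays and between 5.55 and 6.17 with doxycycline. That level came from 2 members, NT5E and TGFBI, which exceeded the mean of the other 7 arrays by 3.87 and 4.04 in vehicle replicate 1, whereas AXL, EGFR and NGFR differed from it by 0.51, 0.31 and -0.015. Within the doxycycline group the list mean was lowest in replicate 1 (5.55) and highest in replicate 4 (6.17). AXL and TGFBI had both extremes in those arrays. NT5E was highest in replicate 4 but lowest in replicate 2, and NGFR was lowest in replicate 1 but highest in replicate 3. EGFR had its lowest value, 5.11, in replicate 4 and its highest in replicate 3. The melanocyte list (11 of 13 measured) had a mean of 5.15 in vehicle replicate 1 against 5.30 to 5.39 in the other arrays, with 4 of the 11 members higher there, among them PRAME, a tumour antigen gene, by 0.34. MLANA and PMEL, melanosome protein genes, had the largest deficits, -1.28 and -0.62 relative to the other 7 arrays. T and NK lymphocyte markers (9 of 10 measured) were at 4.97 in vehicle replicate 1 and 5.10 to 5.28 elsewhere, and B lymphocyte markers (6 of 8 measured) at 5.66 and 5.82 to 5.98. Relative to the other 7 arrays these 2 lists were at -0.20 and -0.24 there. The macrophage, endothelium, fibroblast, keratinocyte and erythroid lists were at -0.095, -0.14, -0.15, -0.16 and -0.023. Low values were common in that array: the median over all genes was -0.11, and 34.7% of all genes were higher there. Skeletal muscle markers (9 of 10 measured), a tissue with a strong glycolytic programme, were at 5.62 in vehicle replicate 1, between 5.77 and 6.37 in the other vehicle arrays and between 5.88 (replicate 4) and 6.77 (replicate 1) with doxycycline. Of these 9 muscle markers, 4 were above 0 at an unadjusted p under 0.05 (limma), against 2.49% of all genes, and 0 passed after adjustment. Adipocyte markers (6 of 7 measured) ran from 4.99 to 5.30 with vehicle and from 5.39 to 5.68 with doxycycline and did not overlap. FABP4, CIDEC and LPL had groups apart with doxycycline above vehicle, as did 1.76% of all genes. The groups overlapped for ADIPOQ, LEP and PLIN1, with differences of 0.31, 0.35 and -0.13. No detection calls were used, so whether a marker was absent was not assessed, and the part of cell composition in the glycolytic values was not tested.

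The profiles most like the 3 widest-ranging members were sought among the other 17481 genes by the root mean square difference of gene-centred values over the 8 arrays. For GAPDH they were B2M, the MHC class I light chain gene, at 0.16 log2 units, AKAP12, a kinase-anchoring protein gene, at 0.17, and TM4SF1, a membrane protein gene, at 0.19. For ENO1 they were PRC1, a spindle midzone protein gene, at 0.26, SSB, an RNA-binding protein gene, at 0.27, and ATP5PF, an ATP synthase subunit gene, at 0.29. LDHB had no profile that close: PRC1 at 0.43, RPL35, a ribosomal protein gene, at 0.45 and ERRFI1, an EGFR inhibitor gene, at 0.45 were the nearest. The excess of vehicle replicate 1 weighs heavily in this measure: it was 3.07 for B2M, 2.97 for PRC1 and 4.26 for ERRFI1.

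The rest of glucose metabolism was described from lists of 98 further genes, of which 89 were measured and 9 were not analysed here. Among the 89, 0 passed at an adjusted p under 0.05 (limma), 3 (3.37%) were at an unadjusted p under 0.05 above 0 (PGK2, PDK2 and GYG1) and 0 below 0, against 2.49% and 1.31% of all genes. Without vehicle replicate 1 these counts were 2 above 0 (2.25%, TIGAR and BNIP3) and 4 below 0 (4.49%, ALDOC, TKT, FBP2 and NDRG1), against 2.66% and 2.25% of all genes. Of these 6 genes, all but BNIP3 are named after their values were seen. Their differences were spread around 0, with 43 above and 46 below and a median of -0.013, against 0.021 over all genes. In vehicle replicate 1, 3 of the 89 (3.37%) exceeded the other arrays by more than 1 log2 unit, near the 3.43% of all genes: SLC2A14, BSG and HIF1A.

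Among 15 other glycolytic enzymes measured, 7 differences were above 0 and 8 below. GPI, which turns glucose 6-phosphate into fructose 6-phosphate, averaged 5.85 with vehicle (SD 0.38, n = 4) and 5.52 with doxycycline (SD 0.20, n = 4), and vehicle replicate 1 exceeded the rest by 0.82. The GPI difference of -0.33 was -0.15 without that array. PGK2, the testis form of phosphoglycerate kinase, averaged 4.11 (SD 0.26) and 4.58 (SD 0.39), and its difference of 0.47 was 0.29 without doxycycline replicate 1. ALDOA and PGAM1, chosen after their values were seen because they fill the aldolase and mutase steps, differed by -0.060 ± 0.22 (SE) and 0.061 ± 0.16 (SE). ALDOA was at 8.69 in vehicle replicate 1, within the 7.97 to 9.01 of the other arrays, and PGAM1 was at 7.42, within 7.07 to 7.90. The 4 measured enzymes that set fructose 2,6-bisphosphate, the activator of phosphofructokinase, all had differences above 0, up to 0.19 ± 0.16 (SE) for PFKFB2, and 3 of them without vehicle replicate 1. The PFKFB2 difference was 0.095 without vehicle replicate 1 and 0.35 without vehicle replicate 4.

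Of 9 other glucose transporters, 4 were above 0 and 5 below, from -0.42 ± 0.26 (SE) for SLC2A14, a close copy of SLC2A3 that its probes may not tell apart, to 0.20 ± 0.17 (SE) for SLC2A10. The SLC2A14 difference was -0.11 without vehicle replicate 1, and that of SLC2A10 0.097 without vehicle replicate 4. For lactate handling, 1 of 5 measured genes was above 0: SLC16A7, a monocarboxylate transporter gene, at 0.023 ± 0.18 (SE). BSG, which encodes the chaperone of lactate transporters, was at 6.30 in vehicle replicate 1 and between 4.55 and 5.01 elsewhere, and its difference of -0.39 ± 0.30 (SE) was -0.00522 without that array. Pyruvate entry into mitochondria held 7 of 13 genes above 0, with PDK2, a kinase that inhibits pyruvate dehydrogenase, at 0.39 ± 0.18 (SE) and PDHX, a subunit of that complex, at -0.28 ± 0.22 (SE). The PDK2 difference was 0.26 without vehicle replicate 1 and that of PDHX -0.070.

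The pentose phosphate pathway, the branch that makes ribose and NADPH, held 3 of 7 genes above 0, with RPE at 0.28 ± 0.15 (SE) and TALDO1 at -0.25 ± 0.12 (SE). The RPE difference was 0.17 without vehicle replicate 2. Gluconeogenesis held 1 of 6 above 0, FBP1 at 0.13 ± 0.15 (SE), which ranged from 0.040 without vehicle replicate 3 to 0.26 without vehicle replicate 2. G6PC3, a glucose 6-phosphatase gene, was at 5.91, 5.87, 5.96 and 5.82 with vehicle and 5.78, 5.59, 5.70 and 5.53 with doxycycline. Its groups did not overlap (adjusted p 0.987, limma), where 0.863% of all genes had groups apart in that direction. In glycogen metabolism 6 of 9 were above 0. GYG1, the primer of glycogen, was at 7.61 to 7.83 with vehicle and 7.85 to 8.18 with doxycycline. Its groups did not overlap either (adjusted p 0.987, limma), where 1.76% of all genes had groups apart in that direction. GBE1, the branching enzyme gene, differed by -0.24 ± 0.17 (SE). The GBE1 difference was -0.0999 without doxycycline replicate 3 and -0.15 without vehicle replicate 1.

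Regulators were split evenly, 5 above and 5 below 0. HIF1A, which encodes the oxygen-regulated subunit of HIF1, was at 7.35, 5.04, 4.85 and 5.80 with vehicle and on average 5.48 with doxycycline (SD 0.38, n = 4). Its difference turned from -0.28 ± 0.43 (SE) to 0.25 ± 0.23 (SE) without vehicle replicate 1, whereas EPAS1, which encodes HIF2 alpha, stayed above 0 at 0.17 and 0.11 and was 0.0815 without doxycycline replicate 4. Among 11 further hypoxia targets, 5 were above 0 and 6 below, with BNIP3, a mitophagy receptor gene, at 0.28 ± 0.15 (SE) and DDIT4, an mTORC1 inhibitor gene, at -0.33 ± 0.16 (SE). The BNIP3 difference was 0.134 without vehicle replicate 2. The median of these hypoxia targets was -0.00433.

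**Figure D4:**
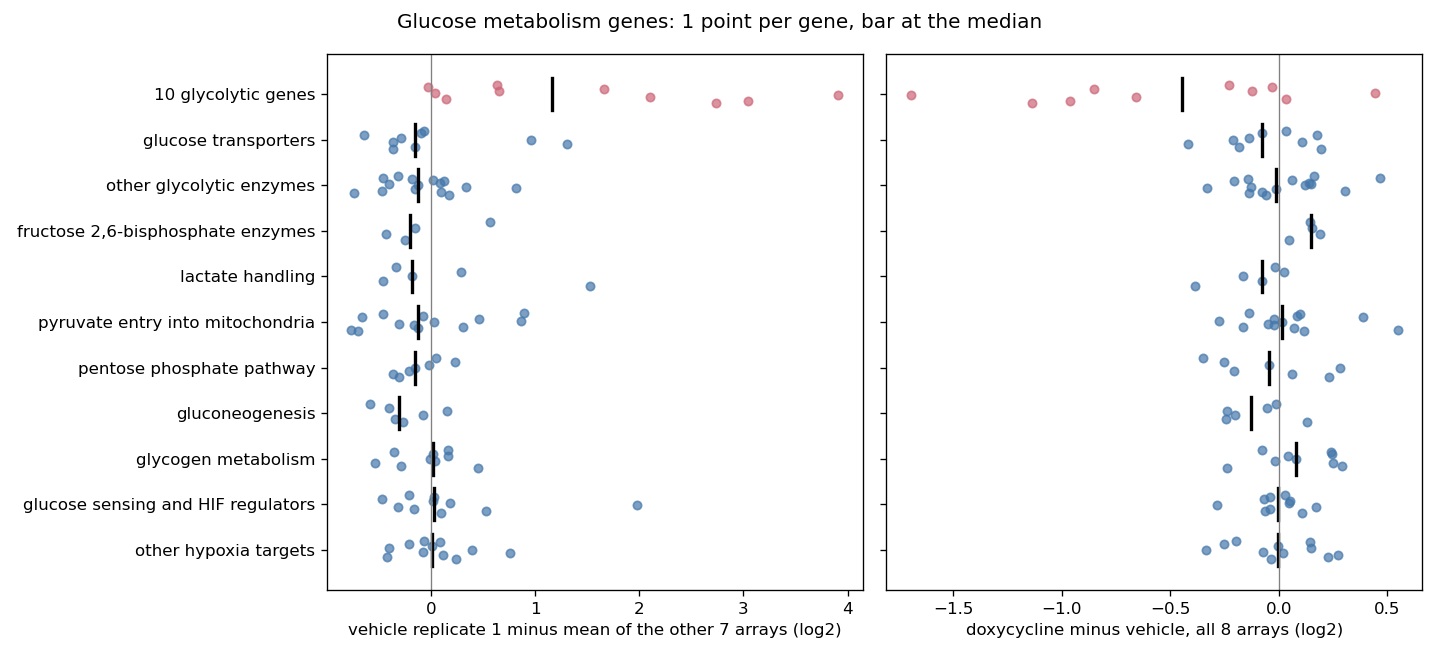
Glucose metabolism genes by list, 1 point per gene with a bar at the list's median: on the left the excess of vehicle replicate 1 over the mean of the other 7 arrays, on the right doxycycline minus vehicle over all 8 arrays, both in log2 units. The 10 glycolytic genes (red) reach 3.91 on the left and -1.70 on the right, while the medians of the other lists stay between -0.31 and 0.025 on the left and between -0.13 and 0.15 on the right.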

How the data were processed

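Expression was measured with biotin-labelled total RNA on 8 Affymetrix human arrays, 1 per lymph node sample, 4 per group. Per the labels the samples are biological replicas. The authors deposited log2 values made with RMA, per the submitters' processing notes. Neither its version nor a genome build is given in these sources. RMA gives all arrays like distributions, so more or less human RNA in a node would appear as shifts of single genes. Of 18565 probe sets, 17509 had 1 gene symbol and 1056 none, and the latter were left out. Symbols were matched to RefSeq by gene identifier. For the 16 genes with several probe sets the brightest was used, leaving 17491 genes.

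Doxycycline minus vehicle was fitted over all genes with limma 3.58.1 (lmFit and eBayes, R 4.3.3), two-sided, with Benjamini-Hochberg adjustment, a threshold of 0.05 and no covariate, and the fit was tested on simulated data. LDHA minus LDHB was tested by exact permutation. Tables were read with the data.table package (version 1.17.8). Motifs and plots used Python 3.11.15, pandas 2.3.3 and matplotlib 3.10.9. The members and lists were chosen with earlier results of these data known. Named genes are the 10 members, from each further list the gene with the smallest p in each direction, and the 3 nearest profiles of the 3 widest-ranging members. Beyond that rule ALDOA, PGAM1, TIGAR, ALDOC, TKT, FBP2, NDRG1 and single cell markers are named, chosen after their values were seen. Alternatives tried were a block for the replicate number, centring of medians, cyclic loess or quantile normalization, leaving out the dimmest 25% or 50% of genes, averaged probe sets, array weights, a trended robust variance and leaving out each array.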

Additional observations from a re-analysis of the deposited data

Results flagged for a closer look

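PKM in vehicle replicate 1, at 8.23, was set apart from the other vehicle arrays, of which the nearest was at 6.95, by a gap of 90.6% of the group's range. It was the only such value among 22 groups of 4 arrays (the 10 genes and LDHA minus LDHB in each treatment). For GAPDH, LDHA, LDHB and ENO1, also highest in that array, the spread of the remaining vehicle arrays kept the gap below the critical share of 0.829. Chance flags about 1 in 20 groups.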

How the results depend on the processing

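Under all alternatives run, 0 of the 10 genes and 0 of the 89 further genes passed at an adjusted p under 0.05 (limma). With all 8 arrays 665 genes were at an unadjusted p under 0.05. GAPDH, LDHA, LDHB, PKM, ENO1, TPI1 and PFKL kept their sign in every alternative in which they were tested. LDHA was removed with the dimmest 25% of genes, and LDHA and PGK1 with the dimmest 50%. With single arrays left out PGK1 ranged from -0.351 to 0.0465, above 0 without vehicle replicate 1 or doxycycline replicate 1 (0.0115). SLC2A1 ranged from -0.106 to 0.103, above 0 without vehicle replicate 4 or doxycycline replicate 4 (0.0559). HK2 ranged from -0.0219 to 0.0823, below 0 without vehicle replicate 2 or doxycycline replicate 1 (-0.00791). HIF1A ranged from -0.586 to 0.249 and was above 0 without vehicle replicate 1. SLC16A7 ranged from -0.0960 to 0.152 and was -0.00777 under cyclic loess. At an unadjusted p under 0.05, PKM was below 0 in 18 of 18 fits, the 1 with all arrays included, LDHB in 16, ENO1 in 14 and PFKL above 0 in 12. LDHA was so in 2 of its 16 fits, below 0, GAPDH in 1 of 18, below 0, and PGK1, TPI1, SLC2A1 and HK2 in 0. The fits reuse most of the same arrays, so these counts are not independent. The share of all genes with such counts was not computed. The causes were not tested. The LDHA minus LDHB difference ranged from 0.68 to 1.23 with single arrays left out. Deviations of same-numbered arrays from their group means correlated at -0.05 to 0.15. For vehicle replicates 2 and 3 the same-numbered doxycycline array was the closest partner, and for replicates 1 and 4 it was not. The labels state no pairing, and correlations this low cannot settle whether the replicate numbers pair the samples. With a replicate block the LDHA minus LDHB difference was 1.04 with an exact p of 0.125, the smallest that 16 sign changes allow, and the block called 0 genes. Scaling moved the median of all genes to between -0.00885 and 0.01. With 4 arrays a group, the median standard error of a gene was 0.15.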
